A study of Homo sapiens with 6 samples.

Results

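Fibroblasts surround themselves with a matrix that they make and then modify. Beside the collagens, this matrix holds adhesive glycoproteins such as fibronectin, elastic fibres built on fibrillin microfibrils, proteoglycans that bind water and growth factors, and basement membrane proteins such as laminins and nidogens. Enzymes of the endoplasmic reticulum hydroxylate the procollagen chains, and copper-dependent lysyl oxidases crosslink collagen and elastin outside the cell. The genes described here are 55 matrix glycoproteins, proteoglycans, crosslinking enzymes and procollagen-modifying enzymes, with collagens and proteases left out. They were taken by gene symbol from a table of 58302 genes. All 55 symbols were found, none occurred more than once, and all 55 genes passed the filter on low counts, which left 14667 genes for testing.

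The cells were hTert 1BR3 fibroblasts, a line from forearm skin immortalised with telomerase. One group of 3 samples was transfected with a pool of siRNAs against MCM7, a subunit of the helicase that opens DNA for replication, and the other group of 3 samples with non-targeting siRNAs, called control siRNA here. By the study's methods both groups were transfected while cycling and then starved of serum for 3 days, to induce cilia, before RNA was taken. All 6 samples come from 1 cell line. Nothing in the labels tells if replicates were grown as separate cultures, so the p-values cover only the variation among the samples at hand, which may be technical.

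The libraries held between 13721281 and 23969024 reads assigned to genes with MCM7 siRNA and between 18669386 and 21380345 with control siRNA. MCM7 itself, on chromosome 7 at 100092233 to 100101940 of GRCh38, had 3.51, 3.33 and 3.18 counts scaled to library size as CPM with MCM7 siRNA, against 27.3, 29.6 and 31.3 CPM with control siRNA. The labelled cell type was checked against 10 fibroblast markers, all of which were above 1 RPM (assigned reads scaled to library size, as deposited) in every library. Their summed level was 66304 to 70234 RPM with MCM7 siRNA and 63154 to 68920 RPM with control siRNA. Markers of epithelial, endothelial, immune, Schwann and melanocyte, fat, muscle, and cartilage and bone cells summed to at most 17.3 RPM per list with MCM7 siRNA and at most 23.9 RPM with control siRNA. The epithelial list summed to 11.9 to 13.8 RPM with MCM7 siRNA and 21.5 to 23.9 RPM with control siRNA, with KRT19 alone over 1 RPM and KRT5 at 0. The cartilage and bone list summed to 5.22 to 6.27 RPM with MCM7 siRNA and 7.34 to 7.79 RPM with control siRNA, with SOX9 the only gene over 1 RPM in every library and COL2A1 and IBSP at 0. The part of these lists in the matrix results was not tested.

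The matrix genes split in both directions. By the quasi-likelihood test of edgeR, with Benjamini-Hochberg adjustment over all 14667 genes and a threshold of 0.05, 12 of the 55 were called higher with MCM7 siRNA, 11 were called lower and 32 were not called. Over all tested genes 12.8% were called, 6.18% higher and 6.65% lower. Matrix genes are abundant in fibroblasts, and calls are more frequent among abundant genes. Of the 39 matrix genes that averaged 100 CPM or more 15 were called, beside 29.0% of all genes at that level, and of the 48 that averaged 20 CPM or more 21 were called, beside 20.8%. All 23 called genes were also called by DESeq2, as were 8.99% of all tested genes by both tools. The groups did not overlap for 39 of the 55 genes, beside 29.6% of all tested genes. The changes were mostly small. The 55 genes had a median log2 fold change of -0.04, beside 0.00 over all tested genes, and the median size of the change was 0.16, beside 0.12. A change of at least 1.25-fold was found for 10 called genes, 7 higher and 3 lower, beside 5.37% of all tested genes. At least 1.5-fold change was reached by 3 of the 23 called genes, where 1.28% of all tested genes were called at that size. The 3 were NID2 and SRPX2, which were higher, and HAS2, which was lower. The level of a gene in a bulk sample does not separate a change in the number of cells that express it from a change in RNA per cell.

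**Figure D1:**
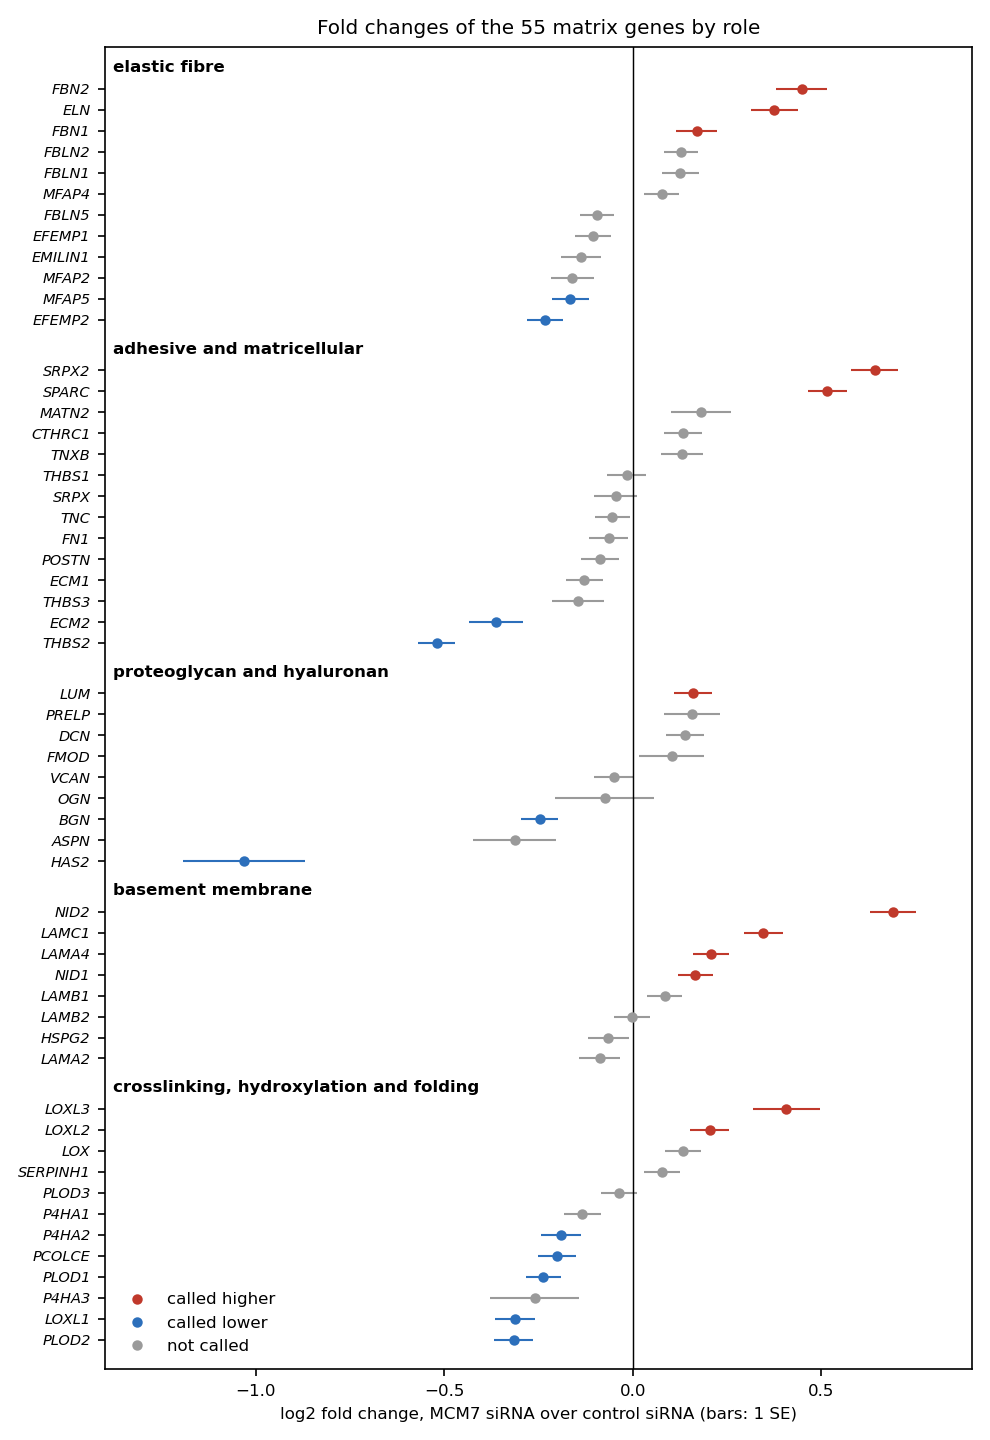
Fold changes of the 55 matrix genes, ordered within each role, with MCM7 siRNA over control siRNA on the log2 scale of the horizontal axis (points, estimates of edgeR; bars, 1 SE; red, called higher; blue, called lower; grey, not called). NID2 has the highest value, 0.69, and HAS2 the lowest, -1.03; the basement membrane group has 4 genes called higher and none lower.

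Together the 55 genes took 8.22%, 8.31% and 8.30% of the assigned reads with MCM7 siRNA, against 7.78%, 8.12% and 7.90% with control siRNA. The groups did not overlap. FN1 alone took 3.67%, 3.62% and 3.67% with MCM7 siRNA and 3.74%, 3.89% and 3.73% with control siRNA. Without FN1 the remaining 54 genes took 4.55%, 4.69% and 4.63% with MCM7 siRNA, against 4.04%, 4.23% and 4.17% with control siRNA. SPARC alone took 0.904%, 0.958% and 0.994% with MCM7 siRNA, against 0.635%, 0.673% and 0.673% with control siRNA.

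Levels of different genes were compared only per length, as the deposited RPKM, reads scaled to gene length and library size. FN1 was the highest of the 55 in both groups, with a mean of 2109 RPKM with MCM7 siRNA and 2188 RPKM with control siRNA. SPARC was next and came close to FN1 with MCM7 siRNA, at 1970 RPKM, against 1367 RPKM with control siRNA. LOX followed at 624 RPKM with MCM7 siRNA and 564 RPKM with control siRNA, then EFEMP1 at 423 and 451 RPKM in the same order. LAMC1 ranked 8 with MCM7 siRNA and 11 with control siRNA. At the low end HAS2 had 0.617 RPKM with MCM7 siRNA and 1.28 RPKM with control siRNA, and P4HA3, OGN and MATN2 had means between 1.43 and 2.65 RPKM in both groups.

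**Figure D2:**
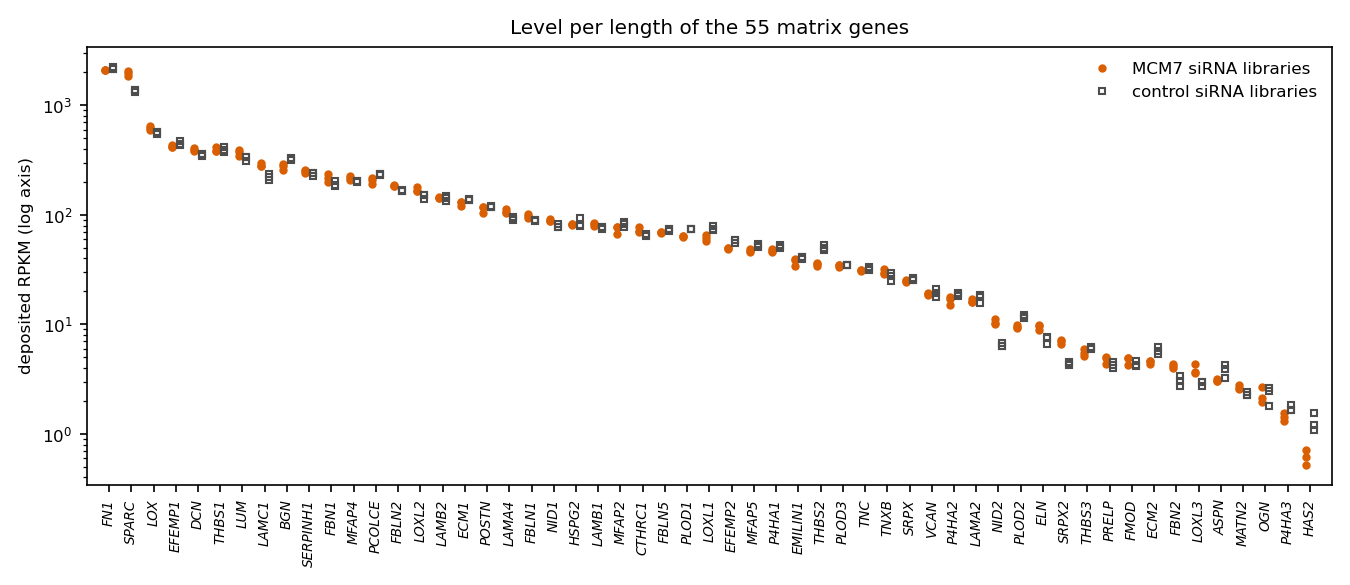
Deposited RPKM of the 55 matrix genes in each library on a log axis, ordered by the mean with MCM7 siRNA (filled circles, 3 MCM7 siRNA libraries; open squares, 3 control siRNA libraries). FN1 and SPARC lie far above the rest, SPARC at 1315 RPKM or more in every library, and HAS2 is lowest, at most 1.55 RPKM. Circles lie above squares for SPARC, LAMC1, NID2 and SRPX2, among others, and below them for THBS2 and HAS2, among others.

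Several genes named below share a short sequence in the 3' UTR, and these sites are shown because 6 of the 12 genes called higher hold them. The display was thus chosen by the calls. The miR-29 family of microRNAs is known to repress many matrix genes through sites that pair with its seed, bases 2 to 8 of the mature RNA. The 3 mature forms, from RefSeq on GRCh38.p14, have the same seed, printed in capitals.

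hsa-miR-29a-3p: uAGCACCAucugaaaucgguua
hsa-miR-29b-3p: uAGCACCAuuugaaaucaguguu
hsa-miR-29c-3p: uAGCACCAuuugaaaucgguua

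The reverse complement of the seed is TGGTGCT. It was searched on the transcript strand in the 3' UTR of the canonical transcript of each tested gene with a 3' UTR of at least 50 nt, and 16.9% of 11904 such genes held it. Of the 55 matrix genes 14 held it (25.5%), namely 6 of the 12 called higher, 2 of the 11 called lower and 6 of the 32 not called. The 6 called higher were SPARC, ELN, FBN1, LAMC1, NID1 and LOXL2, and the 2 called lower were THBS2 and HAS2. The 6 not called were LOX and PRELP, with positive fold changes, and EFEMP1, HSPG2, LAMA2 and MFAP2, with negative ones. Windows of 30 nt around some of the sites, in GRCh38 coordinates and from called genes only, are given with the match in capitals.

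SPARC, chr5:151661366-151661395, minus strand: attggcccattTGGTGCTggccatttgagg
ELN, chr7:74068727-74068756, plus strand: ctcatcaacgtTGGTGCTactgcttggtgg
ELN, chr7:74068986-74069015, plus strand: ccaggggaactTGGTGCTacacgctggtgc
FBN1, chr15:48410556-48410585, minus strand: tggtacctattTGGTGCTagtaaattttca
FBN1, chr15:48410301-48410330, minus strand: agggtttgtaaTGGTGCTtattaagaccaa
LAMC1, chr1:183144242-183144271, plus strand: atctgacacacTGGTGCTattaattatttc
NID1, chr1:235977358-235977387, minus strand: atgttttgtttTGGTGCTctgaatttcttc
THBS2, chr6:169217378-169217407, minus strand: tgaactactttTGGTGCTtaaagttgtcac

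Over all tested genes the match was held by 25.7% of those called higher, 15.2% of those called lower and 16.3% of those not called. Long 3' UTRs hold any short sequence more often, and length moved with the calls. The median 3' UTR was 2264 nt among genes called higher, 940 nt among genes called lower and 1374 nt among genes not called, and among the matrix genes it was 1541, 1101 and 724 nt in the same order. In 3' UTRs of 1500 nt or more, 1548 genes held the match, and 190 of these were called higher and 96 lower. In 3' UTRs under 1500 nt, 463 genes held it, with 33 called higher and 44 lower. More holders were thus called higher than lower only among the long 3' UTRs. The part of length in these shares and counts was not tested. MicroRNAs were not measured here, and a match is a description of the letters, not a shown site of action.

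Among the elastic fibre genes, fibrillins and elastin rose while 2 accessory proteins fell. FBN2, a fibrillin best known from developing tissue (chromosome 5, 128257909 to 128659185), had 52.8, 57.1 and 54.9 CPM with MCM7 siRNA, against 35.8, 44.8 and 40.2 CPM with control siRNA. Its lowest MCM7 siRNA library lay well above its highest control library, and it rose 1.36-fold (log2 fold change 0.45 ± 0.07 SE, edgeR adjusted p = 2.3e-05). ELN, the elastin precursor (chromosome 7, 74027789 to 74069907), had 58.1, 63.4 and 63.1 CPM with MCM7 siRNA and 42.9, 49.2 and 50.2 CPM with control siRNA. It rose 1.30-fold without overlap between the groups (log2 fold change 0.38 ± 0.06 SE, edgeR adjusted p = 9.16e-05).

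FBN1, the main fibrillin of adult microfibrils and the far more abundant of the pair (chromosome 15, 48408313 to 48645721), had 3481, 3703 and 3243 CPM with MCM7 siRNA, against 2949, 3296 and 3024 CPM with control siRNA. Its groups overlapped, since MCM7 siRNA replicate 3 lay below control siRNA replicate 2. The rise of 1.12-fold was near the threshold (edgeR adjusted p = 0.0369) and missed the threshold without control siRNA replicates 1 or 3 (adjusted p = 0.174 and 0.171) or MCM7 siRNA replicates 1 or 2 (adjusted p = 0.111 and 0.14). The ratio of FBN2 to FBN1 reads within a library, which no scaling of libraries can alter, was higher with MCM7 siRNA in every library. On the log2 scale it was -6.04, -6.02 and -5.88 with MCM7 siRNA and -6.36, -6.20 and -6.23 with control siRNA.

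EFEMP2, also called fibulin-4, which is needed for elastic fibre assembly and helps to bring lysyl oxidase to elastin, had 271, 266 and 262 CPM with MCM7 siRNA, against 298, 321 and 319 CPM with control siRNA. It fell 1.17-fold with no overlap (log2 fold change -0.23 ± 0.05 SE, edgeR adjusted p = 0.00104). MFAP5, a small microfibril-associated glycoprotein, had 183, 186 and 178 CPM with MCM7 siRNA and 202, 197 and 214 CPM with control siRNA. Its fall of 1.12-fold (edgeR adjusted p = 0.0218) missed the threshold without control siRNA replicates 1 or 3 (adjusted p = 0.0522 and 0.183) or MCM7 siRNA replicate 1 (adjusted p = 0.0742). The other 7 genes of the group were not called. Of these, the fibulins FBLN1 and FBLN2 had log2 fold changes of 0.13 each. FBLN5, EFEMP1, EMILIN1 and MFAP2 had values between -0.16 and -0.09, and MFAP4 had 0.08. The groups did not overlap for FBLN1, FBLN2, FBLN5, EFEMP1 and EMILIN1. DESeq2 called FBLN2 as well (adjusted p = 0.0239).

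Among the adhesive and matricellular genes, SPARC and SRPX2 rose, and THBS2 and ECM2 fell. SPARC (chromosome 5, 151661096 to 151686975), a collagen-binding glycoprotein that regulates the contact of cells with matrix, had 9078, 9437 and 9959 CPM with MCM7 siRNA, against 6358, 6760 and 6791 CPM with control siRNA, so that all MCM7 siRNA libraries were far above all control libraries (log2 fold change 0.52 ± 0.05 SE, edgeR adjusted p = 3.05e-08). SRPX2 (chromosome X, 100644195 to 100675788), a secreted sushi-repeat protein that binds the urokinase receptor, had 54.6, 52.8 and 49.8 CPM with MCM7 siRNA and 33.2, 32.4 and 34.8 CPM with control siRNA, a rise of 1.56-fold (log2 fold change 0.64 ± 0.06 SE, edgeR adjusted p = 1.43e-08). Its paralog SRPX was not called, with 50.1, 47.9 and 51.1 CPM with MCM7 siRNA and 52.4, 50.3 and 51.1 CPM with control siRNA. The log2 ratio of SRPX2 to SRPX reads was 0.13, 0.14 and -0.04 with MCM7 siRNA, against -0.66, -0.63 and -0.56 with control siRNA.

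THBS2 (chromosome 6, 169215780 to 169254050), a thrombospondin that restrains the growth of vessels and shapes collagen fibrils, had 229, 228 and 220 CPM with MCM7 siRNA, against 309, 342 and 320 CPM with control siRNA. It fell 1.43-fold with no overlap (log2 fold change -0.52 ± 0.05 SE, edgeR adjusted p = 9.84e-09). Neither of its relatives in the list was called. THBS1, an activator of latent TGF-beta, had 3499, 3744 and 3485 CPM with MCM7 siRNA and 3407, 3802 and 3639 CPM with control siRNA, and THBS3 had a log2 fold change of -0.14 ± 0.07 SE. Within libraries the log2 ratio of THBS2 to THBS1 reads was -3.93, -4.04 and -3.99 with MCM7 siRNA and -3.46, -3.48 and -3.51 with control siRNA.

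ECM2, a leucine-rich matrix protein, had 22.97, 22.5 and 21.3 CPM with MCM7 siRNA, against 28.2, 26.6 and 30.7 CPM with control siRNA. It fell 1.29-fold (log2 fold change -0.36 ± 0.07 SE, edgeR adjusted p = 0.000773). Another 10 genes of the group were not called. FN1, the fibronectin that cells assemble into fibrils through integrins, had 36848, 35626 and 36789 CPM with MCM7 siRNA and 37442, 39110 and 37688 CPM with control siRNA. Its MCM7 siRNA libraries were all below its control libraries, but the difference did not pass the test (log2 fold change -0.06 ± 0.05 SE, edgeR adjusted p = 0.475). TNC, TNXB, POSTN, ECM1, MATN2 and CTHRC1 had log2 fold changes between -0.13 and 0.18. The counts of TNXB are uncertain, since its exons overlap those of ATF6B on the same strand and it has a near-identical partial copy.

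**Figure D3:**
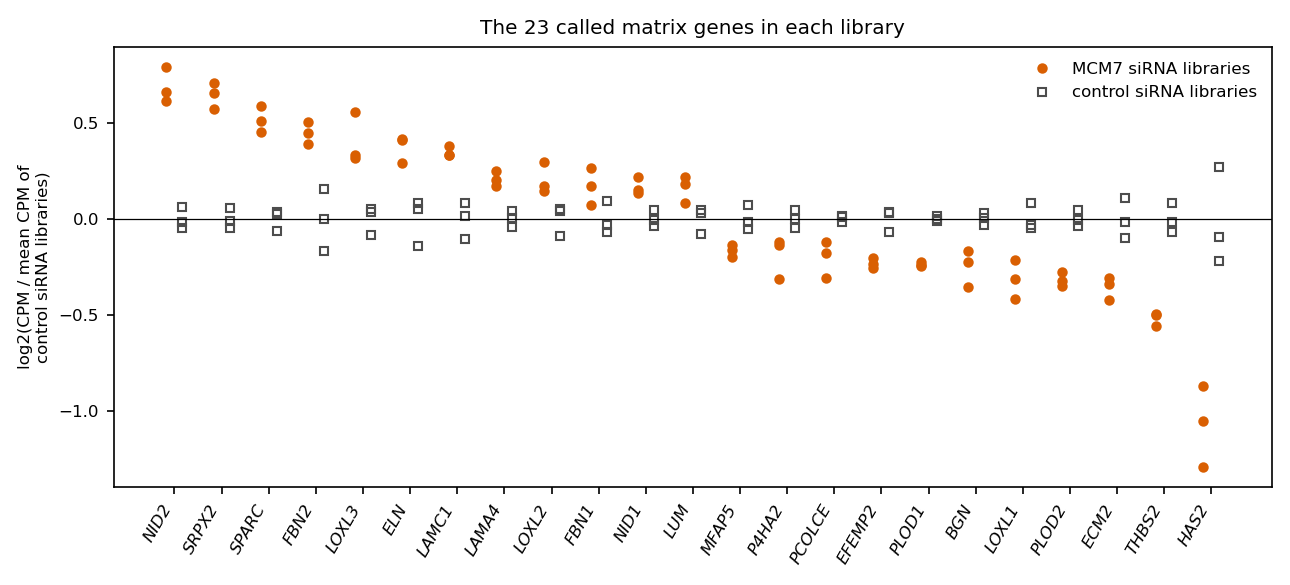
The 23 called matrix genes in each library as log2 of CPM over the mean CPM of the control siRNA libraries, ordered by fold change (filled circles, 3 MCM7 siRNA libraries; open squares, 3 control siRNA libraries). The circles lie apart from the squares for every gene except FBN1, and the spread among squares is widest for HAS2, which had 98 to 121 reads in the control libraries.

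Among proteoglycans and the hyaluronan synthase, HAS2 had the largest change of all 55 genes. HAS2 makes hyaluronan at the plasma membrane and is the main such enzyme of many fibroblasts. It lies on chromosome 8 at 121612116 to 121641440 and was close to the lower end of what these libraries measured. It had 30, 60 and 62 reads with MCM7 siRNA, against 121, 101 and 98 reads with control siRNA, which is 2.19, 2.94 and 2.59 CPM against 6.49, 5.03 and 4.63 CPM. The groups did not overlap, and HAS2 fell 2.04-fold (log2 fold change -1.03 ± 0.16 SE, edgeR adjusted p = 4.08e-05). Its log2 fold change stayed between -1.13 and -0.88 under all 14 alternatives.

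The small leucine-rich proteoglycans, which bind collagen fibrils and set their thickness, did not move as one. BGN, biglycan, fell 1.19-fold, with 685, 626 and 713 CPM with MCM7 siRNA against 783, 803 and 816 CPM with control siRNA (log2 fold change -0.25 ± 0.05 SE, edgeR adjusted p = 0.000971). LUM, lumican, had 1126, 1153 and 1049 CPM with MCM7 siRNA and 1015, 941 and 1023 CPM with control siRNA. Its rise of 1.12-fold (edgeR adjusted p = 0.033) lost its call, but not its direction, without any one of control siRNA replicates 1, 2 and 3 (adjusted p = 0.0581, 0.196 and 0.066) and MCM7 siRNA replicates 1 and 2 (adjusted p = 0.131 and 0.0945), with log2 fold changes between 0.12 and 0.18 in these fits. DCN, decorin, the closest relative of biglycan, was not called by edgeR (log2 fold change 0.14 ± 0.05 SE, adjusted p = 0.0635) but was called by DESeq2 (adjusted p = 0.0251). It had 4952, 4980 and 5310 CPM with MCM7 siRNA and 4675, 4462 and 4704 CPM with control siRNA. The log2 ratio of BGN to DCN reads was lower in every MCM7 siRNA library, at -2.85, -2.99 and -2.90 against -2.58, -2.47 and -2.53 with control siRNA. ASPN had the largest change of those not called in this family (log2 fold change -0.31 ± 0.11 SE, edgeR adjusted p = 0.0561), and FMOD, PRELP and OGN had values between -0.07 and 0.16. VCAN, the large hyaluronan-binding proteoglycan, was at -0.05 ± 0.05 SE.

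Among basement membrane genes 4 of 8 rose and none fell, beside 6.18% called higher and 6.65% called lower over all genes. All of the 8 except NID2 averaged 100 CPM or more, a level at which 29.0% of all genes were called in either direction. The laminin trimer joins an alpha, a beta and a gamma chain, and nidogens link laminin to collagen IV. NID2 had 65.9, 63.8 and 72.2 CPM with MCM7 siRNA, against 40.4, 43.6 and 41.3 CPM with control siRNA. This was the largest rise of the 55 genes, 1.61-fold (chromosome 14, 52004809 to 52069059; log2 fold change 0.69 ± 0.06 SE, edgeR adjusted p = 2.66e-09). Its paralog NID1 had 518, 511 and 541 CPM with MCM7 siRNA and 454, 482 and 463 CPM with control siRNA. NID1 rose 1.12-fold (edgeR adjusted p = 0.017) and missed the threshold without control siRNA replicates 1 or 3 (adjusted p = 0.0916 and 0.0891) or MCM7 siRNA replicate 1 (adjusted p = 0.0546). The log2 ratio of NID2 to NID1 reads was -2.97, -3.00 and -2.91 with MCM7 siRNA, against -3.49, -3.47 and -3.49 with control siRNA.

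LAMC1, the gamma chain shared by most laminins (chromosome 1, 183023420 to 183145592), had 2364, 2443 and 2365 CPM with MCM7 siRNA and 1751, 1992 and 1900 CPM with control siRNA. It rose 1.27-fold without overlap (log2 fold change 0.35 ± 0.05 SE, edgeR adjusted p = 1.81e-05). LAMA4, an alpha chain of mesenchymal and vascular laminins, had 1244, 1283 and 1217 CPM with MCM7 siRNA, against 1048, 1112 and 1082 CPM with control siRNA, and rose 1.16-fold (log2 fold change 0.21 ± 0.05 SE, edgeR adjusted p = 0.00295). Beta chains that complete such trimers were not called. LAMB1 had a log2 fold change of 0.08 ± 0.05 SE. That of LAMB2 was 0.00 ± 0.05 SE, with a sign that changed with the scaling of libraries. Read ratios within libraries showed the same inequality. The log2 ratio of LAMC1 to LAMB1 was 1.82, 1.86 and 1.88 with MCM7 siRNA, against 1.47, 1.65 and 1.64 with control siRNA. LAMA2, an alpha chain prominent in muscle, and HSPG2, which encodes perlecan, were not called (log2 fold changes -0.09 and -0.07).

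Among the crosslinking and procollagen-modifying genes 5 of 12 fell and 2 rose, beside 6.65% called lower and 6.18% called higher over all genes. The share called, 58.3%, was the largest of the 5 roles, but each role is a short list. Of all genes that averaged 100 CPM or more, 29.0% were called. Of the 4 lysyl oxidases, LOXL1 fell while LOXL2 and LOXL3 rose. LOXL1, which acts mainly on elastic fibres, had 223, 207 and 239 CPM with MCM7 siRNA, against 267, 270 and 293 CPM with control siRNA (1.24-fold lower, log2 fold change -0.31 ± 0.05 SE, edgeR adjusted p = 0.000123). LOXL2, which crosslinks collagen IV among other substrates, had 951, 931 and 1036 CPM with MCM7 siRNA and 792, 867 and 873 CPM with control siRNA. LOXL2 rose 1.15-fold (edgeR adjusted p = 0.00721) and missed the threshold without control siRNA replicate 1 (adjusted p = 0.0786). Its exons overlap those of ENTPD4 on the same strand, and ENTPD4 was higher with a log2 fold change of 0.64 ± 0.06 SE (edgeR adjusted p = 5.4e-09), so the counts of LOXL2 are uncertain. The part of ENTPD4 in its rise was not tested.

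LOXL3 was low, with 15.8, 18.7 and 15.9 CPM with MCM7 siRNA and 11.96, 13.1 and 13.0 CPM with control siRNA, and rose 1.33-fold (log2 fold change 0.41 ± 0.09 SE, edgeR adjusted p = 0.00179). LOX, the most abundant of the 4, had 3482, 3544 and 3323 CPM with MCM7 siRNA, against 3060, 3181 and 3192 CPM with control siRNA. The groups did not overlap, but LOX passed the threshold only with DESeq2 (adjusted p = 0.0285; edgeR adjusted p = 0.068) and under 4 other alternatives. The log2 ratio of LOXL2 to LOXL1 reads was 2.09, 2.17 and 2.12 with MCM7 siRNA and 1.57, 1.68 and 1.58 with control siRNA, so that the pair moved apart in every library.

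All 6 prolyl and lysyl hydroxylases had negative fold changes, and 3 of them passed the test. Over all 14667 tested genes 7432 had negative values and 6.65% were called lower. PLOD2, the lysyl hydroxylase of collagen telopeptides, had 72.3, 74.5 and 71.0 CPM with MCM7 siRNA, against 89.9, 93.2 and 88.0 CPM with control siRNA (1.245-fold lower, log2 fold change -0.32 ± 0.05 SE, edgeR adjusted p = 7.9e-05). PLOD1, which hydroxylates lysines of the collagen helix, had 336, 337 and 341 CPM with MCM7 siRNA and 398, 395 and 403 CPM with control siRNA (1.18-fold lower, log2 fold change -0.24 ± 0.05 SE, edgeR adjusted p = 0.000526). P4HA2, a catalytic subunit of prolyl 4-hydroxylase, had 146, 148 and 129 CPM with MCM7 siRNA, against 156, 161 and 166 CPM with control siRNA. Its fall of 1.14-fold (edgeR adjusted p = 0.0153) missed the threshold without control siRNA replicates 2 or 3 (adjusted p = 0.0582 and 0.109) or MCM7 siRNA replicate 3 (adjusted p = 0.0719). P4HA1, P4HA3 and PLOD3 were not called, with log2 fold changes of -0.13, -0.26 and -0.04. The value of PLOD3 was within 1 SE (0.05) of no change, and its groups overlapped. PCOLCE, which enhances the removal of procollagen C-propeptides outside the cell, had 734, 670 and 764 CPM with MCM7 siRNA, against 819, 838 and 835 CPM with control siRNA (1.15-fold lower, edgeR adjusted p = 0.00623). SERPINH1, the collagen chaperone HSP47, was not called (log2 fold change 0.08 ± 0.05 SE).

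Genes that work beside these, in lists of collagen folding and modification and of procollagen export, were mostly called in the lower direction where they were called. Of 16 genes of collagen folding and modification 6 were called lower and 2 higher, beside 6.65% called lower and 6.18% called higher over all tested genes. FKBP10, a prolyl isomerase of the endoplasmic reticulum, had 519, 488 and 518 CPM with MCM7 siRNA, against 631, 625 and 643 CPM with control siRNA (log2 fold change -0.32 ± 0.05 SE, edgeR adjusted p = 1.87e-05). PPIB, CRTAP and P4HB fell 1.199-fold, 1.15-fold and 1.13-fold. PPIB is a cyclophilin and CRTAP its partner in prolyl 3-hydroxylation, while P4HB is the shared beta subunit of prolyl 4-hydroxylase. The 2 genes called higher, P3H2 and COLGALT2, were low, at 18.5 and 10.1 CPM on average with MCM7 siRNA and 14.3 and 8.05 CPM with control siRNA. Of 14 tested genes of procollagen export 5 were called lower and none higher, with the same shares over all genes. Among them the KDEL receptor KDELR3 and the COPII coat gene SEC23A fell 1.24-fold and 1.201-fold, with KDELR3 at 88.4, 79.5 and 86.1 CPM with MCM7 siRNA and 106, 103 and 105 CPM with control siRNA.

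Of 40 tested further matrix glycoproteins outside the 55, 3 were called higher and 4 lower, which is 17.5% called, near the 12.8% over all tested genes. TGFBI, an abundant collagen-binding protein induced by TGF-beta, fell 1.35-fold, with 2672, 2737 and 2690 CPM with MCM7 siRNA against 3576, 3621 and 3727 CPM with control siRNA (edgeR adjusted p = 1.6e-07). PXDN, a peroxidase that crosslinks collagen IV, rose 1.17-fold. Of 18 tested further proteoglycans 4 were called lower and 1 higher, 27.8% in all. Cell surface carriers of heparan sulfate led the lower ones. SDC4 had 52.4, 59.2 and 54.8 CPM with MCM7 siRNA, against 99.5, 101 and 103 CPM with control siRNA, a fall of 1.82-fold (edgeR adjusted p = 2.95e-12), and GPC1 fell 1.26-fold. Of 35 tested genes of glycosaminoglycan synthesis and sulfation 5 were called higher and 3 lower, 22.9% in all. CEMIP, which takes part in the breakdown of hyaluronan, rose 1.23-fold, with 1273, 1253 and 1263 CPM with MCM7 siRNA against 1009, 1055 and 1027 CPM with control siRNA (edgeR adjusted p = 4.67e-05). The heparan 6-O-endosulfatases SULF1 and SULF2 rose 1.16-fold and 1.203-fold. CHST14, a sulfotransferase of dermatan sulfate, fell 1.26-fold, with 28.5, 27.8 and 29.98 CPM with MCM7 siRNA against 36.8, 38.7 and 33.2 CPM with control siRNA (edgeR adjusted p = 0.00123). CHST15, a sulfotransferase of chondroitin sulfate, had only 5, 11 and 10 reads with MCM7 siRNA, against 19, 32 and 18 reads with control siRNA, and fell 2.55-fold (edgeR adjusted p = 0.00627), while DESeq2 gave it no adjusted p.

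**Figure D4:**
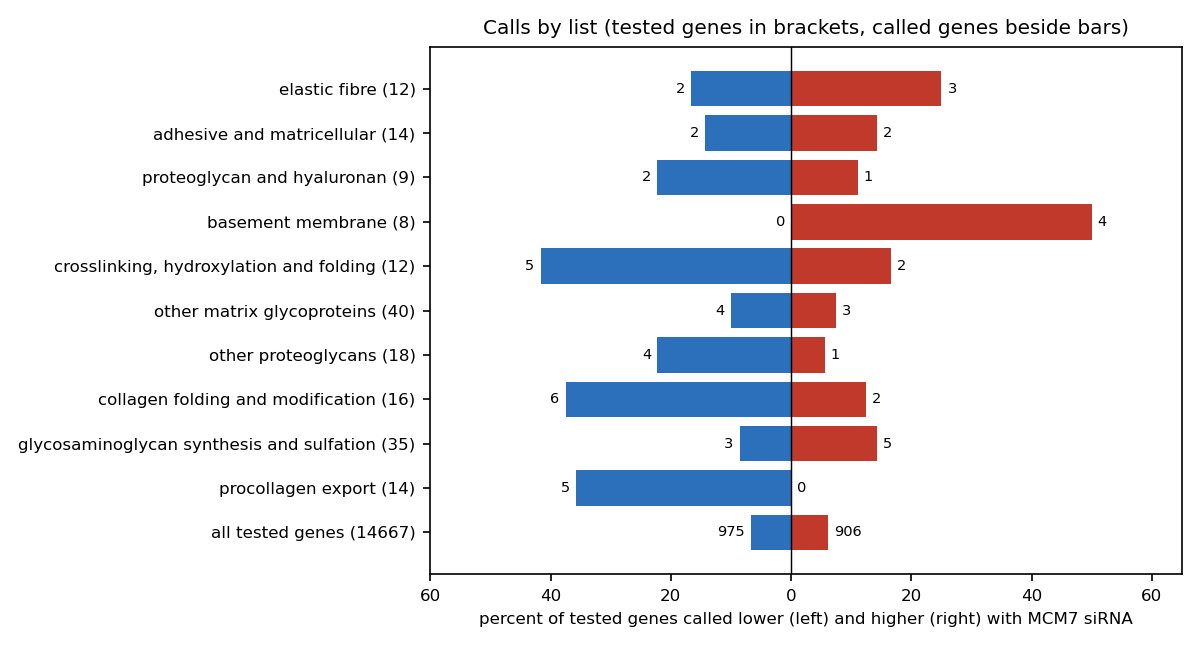
Percent of the tested genes of each list called higher (red, right of 0) and lower (blue, left of 0) with MCM7 siRNA by edgeR, with the number of called genes beside each bar and of tested genes in brackets. The top 5 bars are the roles of the 55 matrix genes and the lowest is all tested genes; procollagen export has 5 genes called lower and 0 higher, and basement membrane 0 lower and 4 higher.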

How the data were processed

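RNA from 6 samples, 3 per group, was sequenced. According to the methods of the study, stranded libraries were prepared from polyadenylated RNA, sequenced from 1 end and mapped to GRCh38, with only unique hits on annotated loci kept and counting by strand. Tools named in the notes of the submitters are TopHat2 2.1.0, featureCounts 1.5.0 and bcl2fastq 1.8.4.

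The authors deposited raw read counts per gene, used for every test. The deposited RPM values are these counts scaled to the assigned reads of each library, and served for 1 alternative. The deposited RPKM values are RPM divided by a single length per gene, and were used only to set levels of different genes side by side.

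Low counts were filtered with filterByExpr, libraries were scaled by TMM (factors 0.991 to 1.016), and groups were compared in edgeR 4.0.16 by its quasi-likelihood F-test. DESeq2 1.42.0 and limma 3.58.1 (R 4.3.3) served for alternatives, which also covered scaling, filtering, a replicate block and leaving out each library. CPM in the text include the TMM factors. The tests were also run on counts simulated from the edgeR fit, which cannot show how well that model suits these data. No library was a copy of another by a chi-square comparison of counts. MCM7 siRNA replicates 2 and 3 differed most within a group. Their chi-square per degree of freedom was 8.889, beside 2.751 to 4.1 for other pairs of the same group. Pairs of libraries from different groups had 7.732 to 16.148, so this pair differed as much as some of those. Gene positions and 3' UTRs are those of GENCODE 44, matched by Ensembl identifier, and figures were drawn with matplotlib 3.10.9. Of the other lists, 1 gene of procollagen export had no row under its symbol.

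The 55 genes, the other lists and the searched sequences were chosen with earlier results of these data known. Values in each library are given for called genes and for some abundant ones. Of each other list at most 4 called genes with the smallest p were named. CHST15, COLGALT2, P4HB, P3H1, P3H3, P3H4, KRT19, SOX9, ENTPD4 and ATF6B were named after values were seen. So were members with library values that were neither called nor among the most abundant. The ratios of reads within families were also chosen after the values were seen and were not tested, since an exact permutation test of 3 against 3 samples cannot go below p = 0.1.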

Additional observations from a re-analysis of the deposited data

How the results depend on the processing

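Over 14 alternatives, 17 of the 23 called matrix genes kept their call and direction in each, and 6 (FBN1, MFAP5, LUM, NID1, LOXL2 and P4HA2) lost the call when 1 library was left out. No called gene changed sign. Of the 32 genes not called, 11 passed the threshold under at least 1 alternative. The count of genes called higher was 12 to 15 under the other scalings, filters and tests and 8 to 15 without 1 library, and that of genes called lower was 11 to 12 and 9 to 12. With an adjusted p under 0.05 in edgeR and DESeq2 together, close to the rule of the study, which names DESeq in place of DESeq2, the counts stayed at 12 and 11, and with at least 1.5-fold change besides, 2 were higher and 1 was lower, and 118 genes passed over the whole table against 1881 by edgeR alone. Without control siRNA replicate 3 the whole table gave 1151 called genes, and without MCM7 siRNA replicate 3 it gave 2265. These were the ends of the range without 1 library. The sign of LAMB2, -0.0019, turned to 0.0004 with RLE size factors and with DESeq2, 0.0099 with library size alone, 0.0017 with no filter and 0.0107 on RPM values with a pseudocount of 0.5, and without 1 library it lay between -0.0412 and 0.0258. The uncalled genes THBS1, VCAN, OGN and HSPG2 also turned without 1 library, with ranges of -0.0576 to 0.0199 for THBS1, -0.114 to 0.0158 for VCAN, -0.225 to 0.0437 for OGN and -0.113 to 0.0098 for HSPG2. The cause was not tested. Same-numbered samples did not deviate together (correlations of -0.0122, -0.0259 and -0.0173). These values cannot tell whether such samples came from the same experiment. With the replicate number as a block, 12 matrix genes were called higher and 12 lower, and 1961 genes over the whole table. Depth limits the low genes most, as shown by the 30 reads of HAS2 in the smallest library.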

Other observations

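Some of the leucine-rich matrix genes lie side by side in the genome. On chromosome 9, OGN (92383268 to 92404696), ASPN (92456205 to 92482506) and ECM2 (92493554 to 92536655) are in a row, with OMD, a keratan sulfate proteoglycan, in the same cluster. OMD rose 1.44-fold, with 14.8, 11.6 and 11.2 CPM with MCM7 siRNA against 8.15, 8.17 and 9.35 CPM with control siRNA (edgeR adjusted p = 0.00107), while ECM2, with a log2 fold change of -0.36, fell 1.29-fold. ASPN had 7.61, 7.74 and 7.53 CPM with MCM7 siRNA and 10.6, 8.07 and 9.78 CPM with control siRNA, and OGN had 8.85, 6.42 and 7.07 CPM against 8.20, 6.03 and 8.83 CPM, and neither was called (log2 fold changes -0.31 and -0.07). On chromosome 12, DCN (91140484 to 91183217) and LUM (91102629 to 91111494) are neighbours, with log2 fold changes of 0.14 and 0.16. DCN was not called by edgeR, and LUM lost its call in 5 of the fits without 1 library. The choice of these genes was made after their values were seen.

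A second 7-mer, GAGATGA, was searched in the same 3' UTRs because an earlier look at these data had linked it to lower values over all genes, so it is no independent result. It was held by 15.0% of the 11904 genes, by 22.0% of those called lower and by 15.0% of those called higher. Of the matrix genes, 3 of 11 called lower (THBS2, HAS2 and PLOD2) and 3 of 12 called higher (SRPX2, LAMC1 and NID1) held it. SRPX2, with a long 3' UTR of 4801 nt, held it at 3 sites and rose. Of 291 genes that held it in a 3' UTR under 1500 nt, 64 were called lower and 9 higher. Of 1494 that held it in a 3' UTR of 1500 nt or more, 139 were called lower and 121 higher. Among all 11904 genes of any length, 924 were called lower and 869 higher. Genes called lower had shorter 3' UTRs than genes called higher, with medians of 940 and 2264 nt. The part of length in these counts was not tested.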
